A study of Mus musculus with 3 samples.

Results

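The genes described here are 10 smooth muscle contractile genes, Acta2, Tagln, Cnn1, Myl9, Myh11, Tpm1, Tpm2, Cald1, Actg2 and Des, read in cultured lymphatic endothelial cells. They were chosen by name, and every probe set that the platform annotation gives to one of them was taken, which makes 24 probe sets of 45101 on the array and 10 of 18194 genes. No probe set annotated to several genes names one of them (0). The samples are 3 cultures of immortalized lymphatic endothelial cells (imLECs), sorted by flow cytometry from mouse skin, at passages 13, 14 and 18, with 1 expression array each. All 3 cultures carry the H-2Kb-tsA58 transgene of the ImmortoMouse, which places a heat-labile large T antigen of SV40 under the interferon-responsive H-2Kb promoter. All were expanded at 33 °C with interferon-gamma on collagen and fibronectin in serum-containing medium with endothelial mitogen, and then kept at 37 °C without interferon-gamma for 3 days. There is no untreated, primary or other-tissue sample in the design, and the labels do not say whether the cultures are descendants of 1 isolate, so the spread between them may be technical or biological.

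In smooth muscle, actin filaments made of alpha and gamma smooth muscle actin slide against myosin filaments, and tropomyosins, caldesmon and calponin sit on the actin filament and tune that motion. Phosphorylation of the regulatory light chain switches the myosin on, and desmin filaments tie the contractile units together. The serum response factor SRF drives many of these genes from CArG boxes, together with cofactors of the myocardin family. Endothelial and mesenchymal cells in culture also build actin stress fibres, and several of these genes, among them Tpm1, Tpm2, Cald1, Myl9 and Tagln, are used outside muscle as well, partly as other splice forms.

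The promoters of Acta2 and Myl9 are shown first, a choice made after the values were seen. Both genes were lowest at passage 14, and both windows hold a match to a CArG box or to a close variant of it. The low reading does not set them apart. Tpm1, Tpm2 and Cald1 were also lowest at passage 14, and their windows hold no such match. Each window runs from 250 bases before to 50 bases after the annotated start, taken from RefSeq (GRCm38.p6), 5′ to 3′ on the gene's own strand. Capitals mark matches to the CArG box (CC, 6 bases that are A or T, GG), to the same motif with 1 of the 6 inner bases a C or a G, and to the M-CAT element (CATTCC on either strand).
Acta2, chr19:34255324-34255623, minus strand: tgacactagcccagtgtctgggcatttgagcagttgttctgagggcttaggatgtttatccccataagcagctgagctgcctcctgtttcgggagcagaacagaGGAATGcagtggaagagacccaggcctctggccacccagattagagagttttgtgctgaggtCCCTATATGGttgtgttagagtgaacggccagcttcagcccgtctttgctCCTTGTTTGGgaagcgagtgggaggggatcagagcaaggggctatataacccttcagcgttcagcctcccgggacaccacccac
Myl9, chr2:156775214-156775513, plus strand: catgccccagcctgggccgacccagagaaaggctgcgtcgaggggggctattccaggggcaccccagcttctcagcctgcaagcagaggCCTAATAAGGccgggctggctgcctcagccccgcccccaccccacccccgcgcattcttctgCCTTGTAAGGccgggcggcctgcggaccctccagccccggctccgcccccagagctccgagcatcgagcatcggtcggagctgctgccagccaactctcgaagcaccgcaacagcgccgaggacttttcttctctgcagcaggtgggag
The Acta2 window holds an M-CAT element 146 bases before the start, written GGAATG on this strand, and CArG-like boxes that begin 84 and 34 bases before it. The Myl9 window holds a CArG box beginning 161 bases before the start and a CArG-like box beginning 99 bases before it. RefSeq windows were at hand for 7 of the 10 genes, and of these 1 held a CArG box (Myl9), 2 a CArG-like box (Acta2 and Myl9) and 3 an M-CAT element (Acta2, Tpm1 and Cald1). Over all genes with a window, 1.81% held a CArG box, 9.69% a CArG-like box and 16.6% an M-CAT element. Of 12 non-muscle relatives of the members with a window, 3 held a CArG box, namely Actg1, Cnn2 and Myl6. The motifs do not overlap one another in these windows, and a match is a stretch of letters, not a measured binding site.

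Values are signal intensities on a linear scale unless log2 is stated, and each passage is a single array. A detection floor for each array was read from 45 genes of unrelated tissues such as liver and testis, as the 95th percentile of their signals. The floors of passages 13, 14 and 18 were 30.1, 40.8 and 29.3 intensity units. A gene is called detected where its brightest probe set lies above the floor on all 3 arrays, and a reading under the floor gives only an upper limit. By this rule 6 of the 10 genes were detected (Acta2, Tagln, Myl9, Tpm1, Tpm2 and Cald1), a share of 60%, against 53.7% of all genes measured. Of the 24 probe sets 12 lay above the floor on all 3 arrays, 8 on 1 or 2 arrays and 4 on none, and over all probe sets with 1 gene 49.9% lay above it on all 3. Counted by array, 7 member genes cleared the floor at passage 13, 6 did so at passage 14 and 9 at passage 18. Over all 18194 genes the counts were 10747, 9989 and 10859, also lowest at passage 14, where the floor was highest. Des, for example, read 34.9 at passage 14, under that floor, and 30.3 at passage 18, above the lower floor there.

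**Figure D1:**
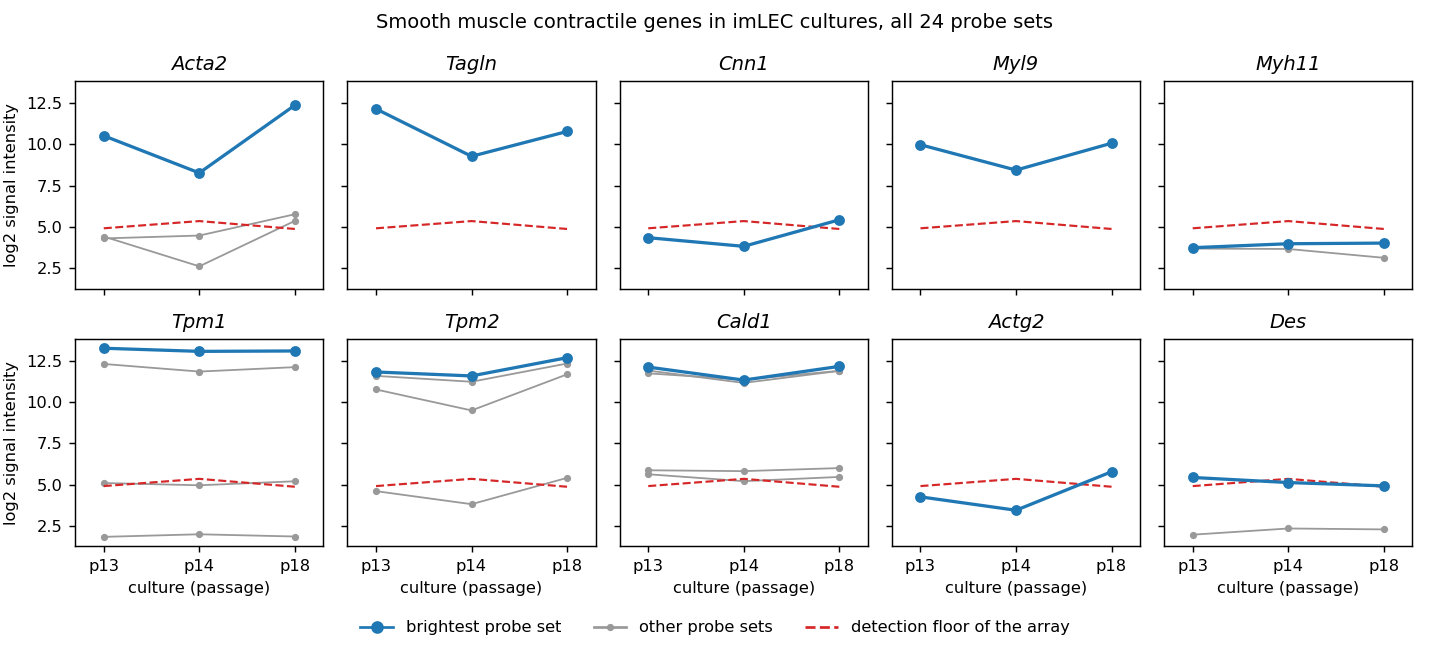
Log2 signal intensity (vertical axis) of every member probe set in the cultures of passages 13, 14 and 18 (horizontal axis), 1 panel per gene, with the brightest probe set in blue, the others in grey and the floor of each array as a dashed red line. Acta2, Tagln and Myl9 dip at passage 14, Tpm1 is nearly flat, and Cnn1 and Actg2 cross the floor at passage 18 alone.

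The thin-filament actin Acta2, alpha smooth muscle actin, showed the widest swing of the 6 detected members. Its brightest probe set, 1416454_s_at, read 1467 at passage 13, 308 at passage 14 and 5289 at passage 18, a log2 mean of 10.38 ± 2.05 (SD, n = 3). The culture of passage 14 was thus lowest and that of passage 18 highest, with 4.76-fold less signal at passage 14 than at 13, 3.61-fold more at passage 18 than at 13 and 17.2-fold more at passage 18 than at 14. Over the 9777 detected genes the median ratio of highest to lowest array was 1.38, and 0.0716% of them had a wider range than Acta2.

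The other 2 Acta2 probe sets were above the floor at passage 18 alone. One of them, 1444105_at, read 21.3 at passage 13, 6.09 at passage 14 and 41.1 at passage 18, and 1456658_at read 19.7, 22.2 and 54.3. Against the floor these are at least 1.37-fold and at least 1.8-fold higher at passage 18 than at 13, and at least 1.01-fold and at least 1.33-fold higher at passage 18 than at 14. All 3 sets are therefore highest at passage 18, while the size of the difference rests on the set whose name ends in _s_at, a suffix Affymetrix gives to sets whose probes can match transcripts of more than one gene. With all _s_at and _x_at sets left out and the floor set anew, the log2 difference between passages 18 and 14 was at least 0.92, against 4.10 with the set. The brightest sets of the 3 other muscle actins, Acta1, Actc1 and Actg2, read between 4.80 and 54.96 on every array, and the cytoplasmic actins Actb and Actg1 differed by 1.02-fold and 1.28-fold between their highest and lowest arrays. The part of other actin transcripts in the signal of the _s_at set was not tested.

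Actg2, gamma smooth muscle actin of visceral muscle, has 1 probe set, which read 19.1 at passage 13, 10.9 at passage 14 and 55.0 at passage 18. It lay above the floor at passage 18 alone, at least 1.83-fold higher than at passage 13 and at least 1.35-fold higher than at passage 14. The order of the arrays is that of the brightest Acta2 set, but the values of passages 13 and 14 are both under the floor and have no order.

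Tagln, which encodes the actin-bundling protein transgelin (SM22-alpha), had a different order. Its only probe set read 4535 at passage 13, 619 at passage 14 and 1756 at passage 18, a log2 mean of 10.73 ± 1.44 (SD, n = 3). Its signal was 7.33-fold lower at passage 14 than at 13, 2.58-fold lower at passage 18 than at 13 and 2.84-fold higher at passage 18 than at 14. The difference between passages 14 and 13 ranked 5 from the bottom among 9777 detected genes. Acta2 and Tagln were thus both lowest at passage 14, but between passages 18 and 13 they lay on opposite sides.

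Cnn1, basic calponin, an actin-binding protein that slows the myosin motor, read 20.3 at passage 13, 14.1 at passage 14 and 43.0 at passage 18. Its single probe set cleared the floor at passage 18 alone, where it was at least 1.43-fold higher than at passage 13 and at least 1.05-fold higher than at passage 14.

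The tropomyosins, coiled-coil proteins that run along the actin filament, differed from each other. Tpm1 was nearly constant: its brightest set read 9833 at passage 13, 8625 at passage 14 and 8770 at passage 18, a range of 1.14-fold (log2 mean 13.15 ± 0.10, SD, n = 3), and 86.2% of detected genes had a wider one. A second Tpm1 set read 5081, 3692 and 4446, a range of 1.38-fold. Of the remaining Tpm1 sets one was above the floor at passages 13 and 18 (34.2 and 36.8) and under it at passage 14 (31.1), and the other was below the floor on all arrays.

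Tpm2 was highest at passage 18 and lowest at passage 14 in all 4 of its probe sets. The brightest, 1425028_a_at, read 3627 at passage 13, 3073 at passage 14 and 6609 at passage 18 (log2 mean 12.03 ± 0.58, SD, n = 3). The set 1419738_a_at read 3080, 2407 and 5174 in the same order of passages, and 1449577_x_at read 1740, 722 and 3285. The 3 bright sets agree on the step between passages 18 and 13, at 1.68-fold, 1.82-fold and 1.89-fold higher at passage 18. They are further apart on passage 14, where the signal was 1.28-fold, 1.18-fold and 2.41-fold lower than at passage 13, the last value being that of the _x_at set, a suffix for probes that may cross-hybridise. The fourth set cleared the floor at passage 18 alone, at 42.5.

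Cald1, caldesmon, which holds back the actin-activated myosin and stabilises actin filaments, was lower at passage 14 and close to equal at passages 13 and 18. Its brightest set, 1424769_s_at, read 4456 at passage 13, 2580 at passage 14 and 4592 at passage 18 (log2 mean 11.87 ± 0.47, SD, n = 3). The signal of passage 14 was 1.73-fold lower than that of passage 13, and the signal of passage 18 was 1.03-fold higher. The neighbouring sets 1424768_at and 1424770_at were 1.30-fold and 1.68-fold lower at passage 14 than at 13. The remaining sets lay near the floor, 1 of them above it on all arrays with 58.4, 56.4 and 64.1.

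Myl9, the regulatory light chain whose phosphorylation activates myosin in smooth muscle and in stress fibres, followed the pattern of Cald1 with a larger step. Its single probe set read 1006 at passage 13, 347 at passage 14 and 1072 at passage 18 (log2 mean 9.49 ± 0.91, SD, n = 3). It was 2.90-fold lower at passage 14 than at 13, 3.09-fold higher at passage 18 than at 14 and 1.07-fold higher at passage 18 than at 13. The matching heavy chain of smooth muscle, Myh11, was below the floor on every array, with readings between 8.72 and 16.2 over both of its probe sets.

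Des, the muscle intermediate filament protein desmin, lay at the floor. Its brighter set read 43.2 at passage 13, 34.9 at passage 14 and 30.3 at passage 18, above the floor at passages 13 and 18, and its second set read between 3.91 and 5.07. The passage 18 reading was 1.42-fold lower than that of passage 13, so Des did not share the higher passage 18 reading of Acta2, Actg2, Cnn1 and Tpm2. With this floor the 4 genes not detected on all arrays were Cnn1, Myh11, Actg2 and Des.

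**Figure D2:**
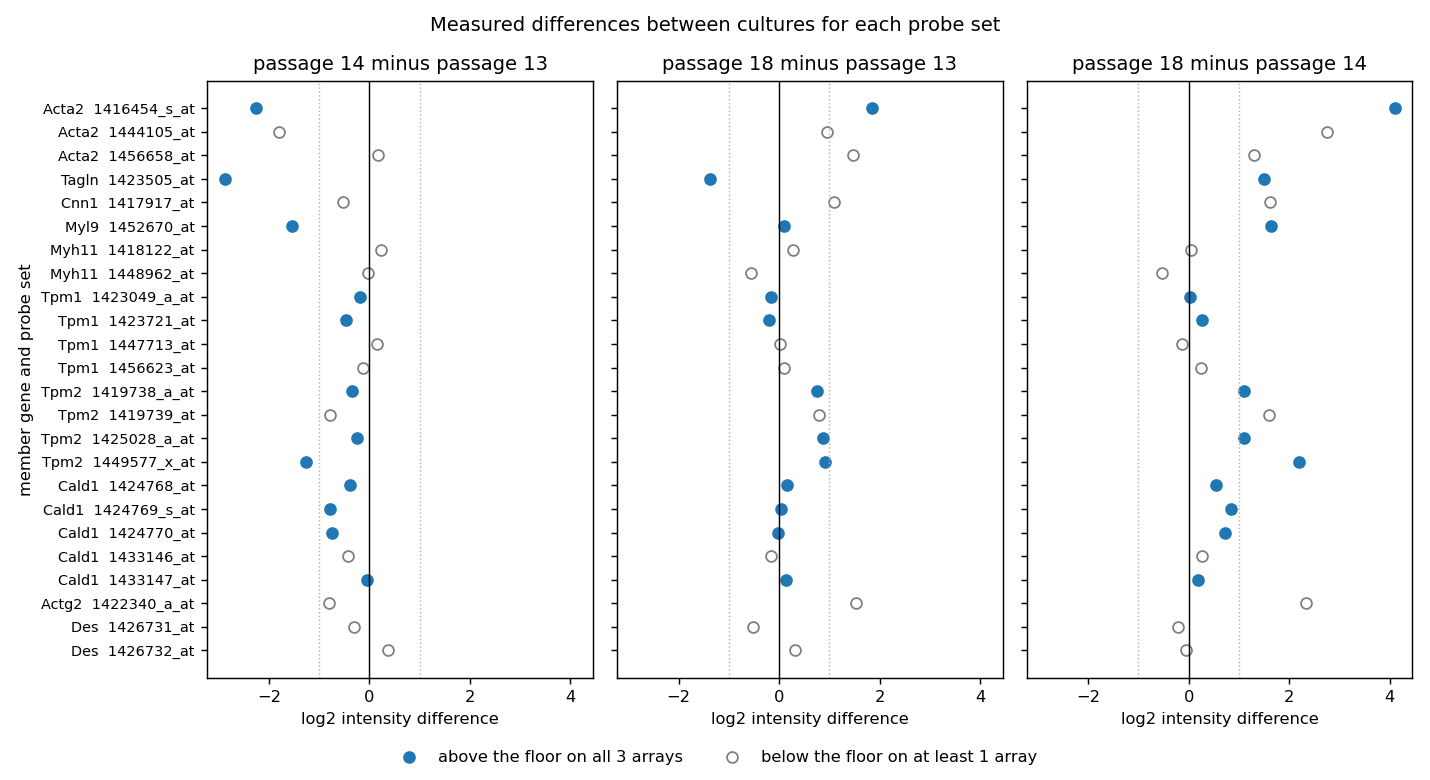
Log2 intensity differences (horizontal axis) between pairs of cultures for each of the 24 member probe sets (rows), with filled points for sets above the floor on all 3 arrays and open points for sets below it on at least 1, and dotted lines at 2-fold. All 12 filled points lie left of 0 for passage 14 minus 13 and right of 0 for passage 18 minus 14, whereas for passage 18 minus 13 they fall on both sides.

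Over the brightest probe sets, 8 of the 10 genes read lowest at passage 14 (all but Myh11 and Des) and 7 of 10 highest at passage 18, where readings under the floor have no secure order. All 6 detected members and all 12 of the sets above the floor on all arrays were lowest at passage 14, a position held by 37.5% of all detected genes and 35.9% of such probe sets. Of the 6, 4 were highest at passage 18 (Acta2, Myl9, Tpm2 and Cald1), against 36.8% of detected genes, and Tagln and Tpm1 were highest at passage 13. The median log2 difference of the 6 was -1.16 for passage 14 minus 13, 0.07 for passage 18 minus 13 and 1.30 for passage 18 minus 14, and over all detected genes it was 0, -0.01 and 0. These differences share arrays, so they are not independent of each other.

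A difference of at least 2-fold was counted where at least 1 of both arrays lay above the floor, with a reading under the floor raised to it. At passage 14, 3 of 7 member genes with a value were at least 2-fold lower than at passage 13 (Acta2, Tagln and Myl9), where the share over all genes was 3.51%, and 0 were higher (2.65% of all genes). At passage 18, 4 of 8 were at least 2-fold higher than at passage 14 (Acta2, Tagln, Myl9 and Tpm2; 7.24% of all genes) and 0 lower (6.11%). Between passages 18 and 13, 1 of 9 was higher (Acta2; 3.17% of all genes) and 1 lower (Tagln; 2.49%). With 1 array per passage these counts have no replicate check. Fewer cells that carry a transcript and less of it per cell cannot be told apart in these bulk cultures.

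**Figure D3:**
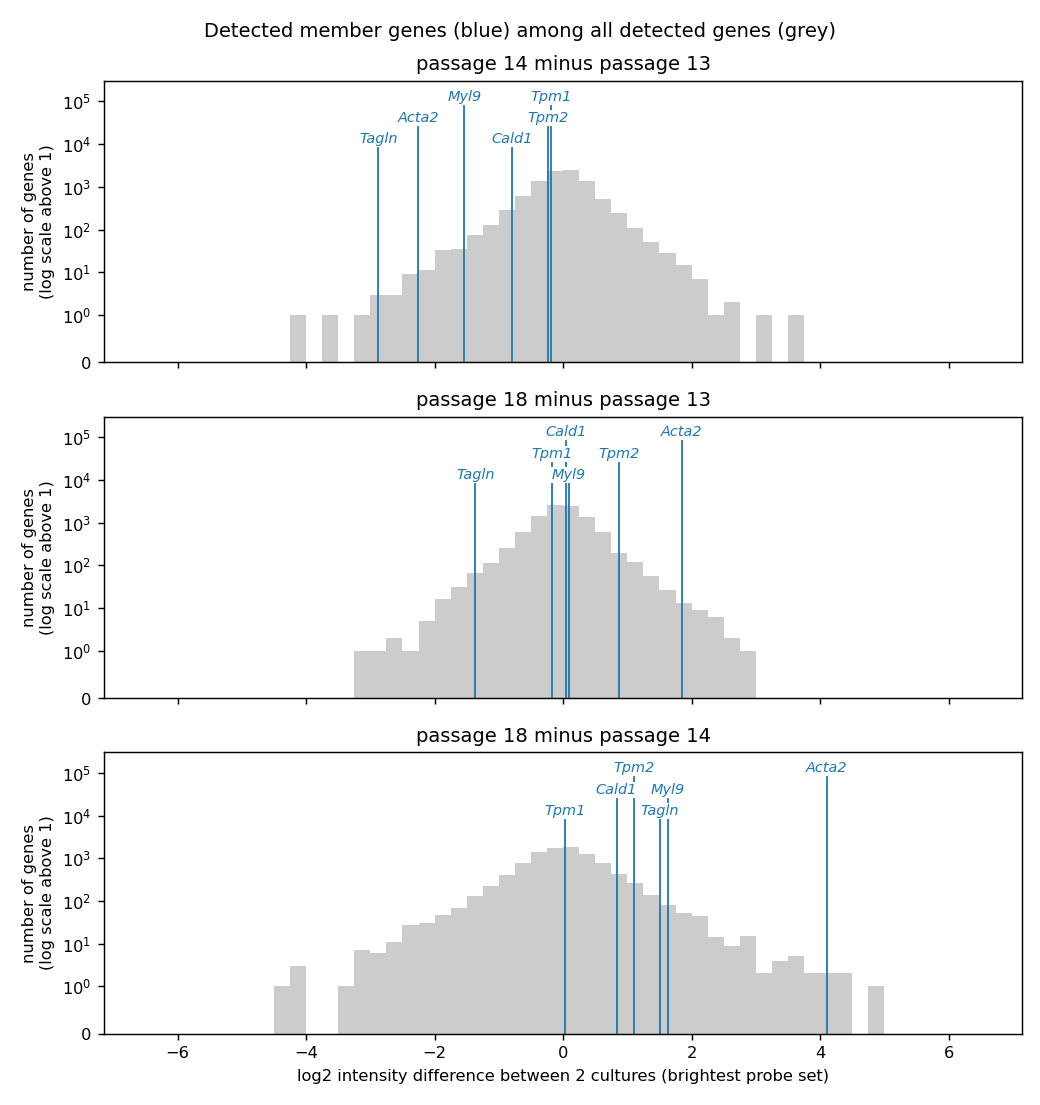
Number of detected genes (vertical axis, log scale above 1) by log2 intensity difference (horizontal axis) for the 3 pairs of cultures, with the 6 detected members as labelled blue lines over all 9777 detected genes in grey. Acta2 at 4.10 stands at the far right for passage 18 minus 14 and Tagln at -2.87 at the far left for passage 14 minus 13, while Tpm1 stays near 0 in every panel.

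A trend with passage number was fitted by limma to every probe set with a mean log2 intensity above the mean floor. Of 15 member probe sets tested 0 passed at an adjusted p under 0.05, as did 0 of all 20874 (0%), and at an unadjusted p under 0.05 there were 2 members against 4% of all probe sets. Both were Tpm2 sets, with slopes of 0.20 ± 0.06 and 0.19 ± 0.07 log2 units per passage (SE). The Acta2 slope was 0.56 ± 0.27 (SE). In limma the adjusted p was 0.910 for these 3 sets and between 0.910 and 0.993 for all 15. Without the passage 18 culture the slopes of Acta2, Tpm2, Myl9 and Cald1 were -2.25, -0.24, -1.54 and -0.79, against 0.56, 0.20, 0.13 and 0.07 with it, so the direction of each rests on that array. The passage 18 array had a Gapdh 3′/5′ signal ratio of 19.4, against 8.59 and 7.10 at passages 13 and 14, while the Actb ratio was 1.42, against 1.18 and 1.2. The part of RNA quality in the differences was not tested.

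Other smooth muscle genes spanned a narrower range than Acta2 (17.2-fold) and Tagln (7.33-fold). The other detected members lay between 1.14-fold (Tpm1) and 3.09-fold (Myl9). Of 15 genes on that list 7 were detected, with highest and lowest arrays between 1.21-fold and 3.41-fold apart, and 4 of the 7 were lowest at passage 14 (37.5% of all detected genes). Smtn, a stress fibre protein of smooth muscle, read 144 at passage 13, 119 at passage 14 and 140 at passage 18. The myosin light chain kinase gene Mylk read 766, 998 and 658, highest at passage 14, and the LIM protein gene Csrp1 read 6591, 4645 and 6196. Ppp1r14a, an inhibitor of myosin phosphatase, read 186, 54.5 and 62.2. It was the only gene of that list called at least 2-fold different between passages 14 and 13 (1 lower, 0 higher of 9 with a value). Of 10 with a value 0 were called at least 2-fold higher at passage 18 than at 14 and 1 lower. The lower gene was Ppp1r12b, a myosin phosphatase subunit, with 174, 321 and 160.5. The small heat shock protein gene Hspb6 was lowest at passage 14, with 235, 139 and 253. Lmod1, which encodes an actin nucleator, read 56.1, 15.8 and 56.4, under the floor at passage 14. At its measured values Lmod1 was 3.55-fold lower at passage 14 than at 13. With the passage 14 reading raised to the floor it was not called. Pln, Kcnmb1, Casq2 and Aoc3 were below the floor on all arrays. Among 16 striated muscle genes 3 were detected and 12 never cleared the floor. Among the detected ones, the troponin genes Tnnt2 and Tnnc1 read 648, 585 and 804, and 99.3, 59.6 and 122, and the atrial light chain gene Myl4 read 101, 125 and 43.4.

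Relatives of the members that serve non-muscle cells varied less. All 13 were detected, and their highest and lowest arrays differed by between 1.02-fold and 1.69-fold. Actb read 11570, 11540 and 11360 at passages 13, 14 and 18, Actg1 11570, 9441 and 12070, Tagln2 556, 469 and 328, and Cnn2 5109, 3118 and 4338. The culture of passage 14 read below that of passage 13 for all 13 (median -0.24 on the log2 scale), whereas 49.5% of all detected genes read above it. Of the 13, 10 were lowest at passage 14, against 37.5% of all detected genes. Focal adhesion and stress fibre genes showed the same low reading with a larger median of -0.57. Of these 10 genes 9 were lowest at passage 14 (37.5% of all detected genes), the exception being Vcl, which links actin to adhesions, with 1203, 1241 and 1803. The actin crosslinkers Flna and Actn1 read 1626, 1049 and 1846, and 1791, 1418 and 2091. Zyx, a zinc-binding protein of focal adhesions, read 1792, 753 and 1939.

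SRF, the factor that binds CArG boxes, varied little, reading 597, 473 and 568 in the cultures of passages 13, 14 and 18. Its cofactor Mrtfa read 115, 52.2 and 165, which was lowest at passage 14 like the detected members, and Mrtfb read 290, 350 and 400. Myocd, the cofactor of cardiac and smooth muscle, was below the floor on all arrays. Fhl1, a LIM protein of muscle, read 137, 53.4 and 428. Of the 9 detected genes on the SRF and cofactor list 7 were lowest at passage 14 (37.5% of all detected genes), and 5 of 9 were at least 2-fold higher at passage 18 than at 14 (7.24% of all genes) and 1 lower (6.11%). The lower one, Mef2c, a MADS-box factor of muscle and endothelium, read 283, 628 and 253.5, and was the 1 gene of the list at least 2-fold higher at passage 14 than at 13, where 3 were lower. Of the TGF-beta pathway, a known inducer of Acta2 and Tagln, 13 of 14 measured genes were detected and the median was -0.19 for passage 14 minus 13 and -0.09 for passage 18 minus 13. At passage 14, 3 of 13 with a value were at least 2-fold lower than at 13 (3.51% of all genes) and 0 higher (2.65%). At passage 18, 4 of 14 were at least 2-fold higher than at 14 (7.24%) and 1 lower (6.11%). Smad6 read 105, 41.8 and 154, and Smad7 141, 69.2 and 257, the same order of arrays as Acta2. Tgfb1 read 101, 101 and 36.6, Tgfb2 792, 657 and 742, Tgfb3 153, 73.4 and 229 and the receptor gene Tgfbr1 342, 265 and 534. None of the genes on these lists passed the limma trend, in which 0 of 20874 probe sets passed.

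**Figure D4:**
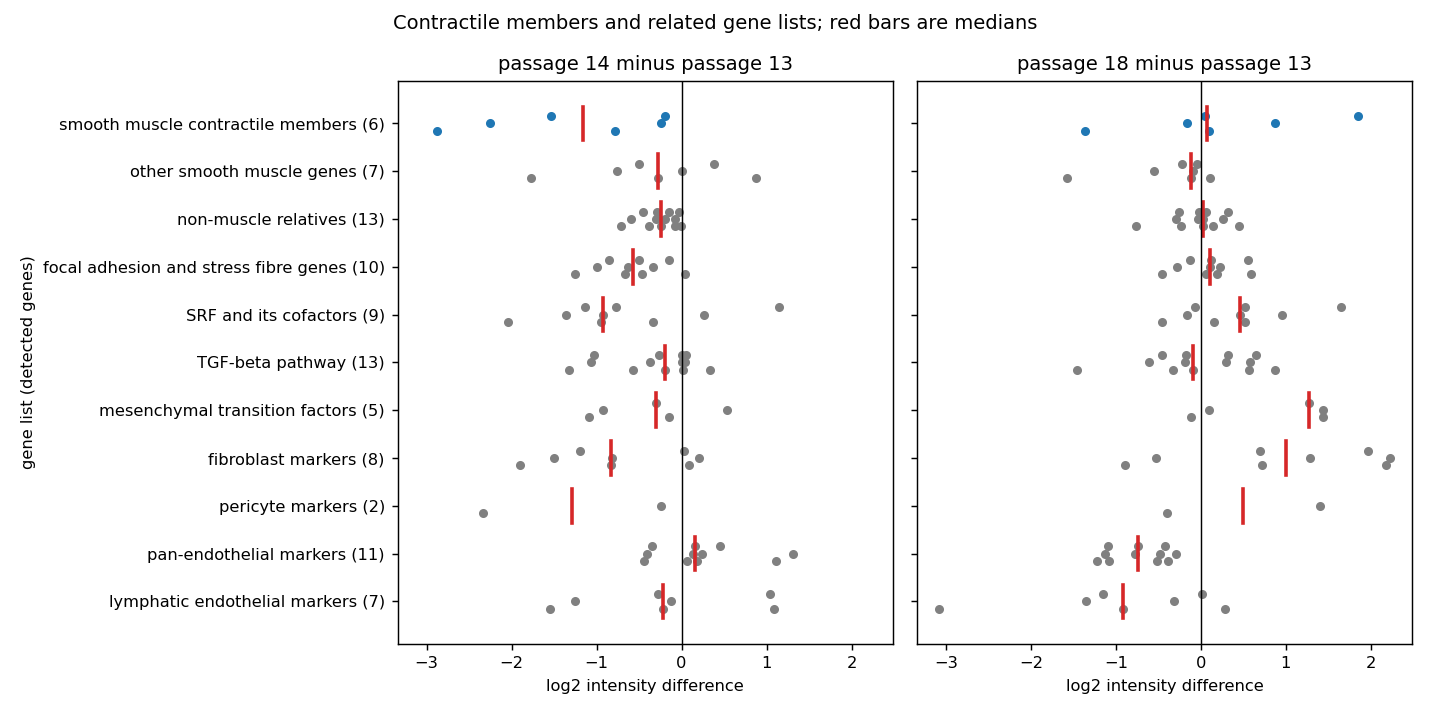
Log2 intensity differences of passages 14 and 18 from passage 13 (horizontal axis) for the detected genes of each list (rows, number of genes in brackets), members in blue, other lists in grey, medians as red bars. For passage 14 the members' median is -1.16 and that of their non-muscle relatives -0.24. The other lists run from -1.29 (pericyte markers, 2 genes), -0.93 (SRF and its cofactors) and -0.83 (fibroblast markers) up to 0.16 (pan-endothelial markers). For passage 18 the members' median is 0.07 while that of the pan-endothelial markers is -0.74.

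The labelled cell type was checked against its markers. Of 13 pan-endothelial genes 11 were detected, with Cdh5 at 1705, 2018 and 1301 at passages 13, 14 and 18, Pecam1 at 1728, 1963 and 1005, Tie1 at 257, 283 and 179, and Tek at 720, 530.1 and 515. Vwf was below the floor on all arrays (17.3, 14.1 and 17.3), and Nos3 read 65.8, 159.6 and 23.1, under the floor at passage 18. At passage 14, where all detected members were lowest, 8 of the 11 read above passage 13 (median log2 difference 0.16), against 49.5% of all detected genes. Of the 11, 0 were lowest there (37.5% of all detected genes). Among 12 genes of the list with a value, 3 were at least 2-fold higher than at 13 (2.65% of all genes) and 0 lower (3.51%). All 11 were lower at passage 18 than at 13 (median -0.74) and than at 14 (median -0.97). Over all detected genes 47.9% were higher at passage 18 than at 13 and 49.5% than at 14. Of the 6 detected members, 4 were higher at passage 18 than at 13 (median 0.07), and Tagln and Tpm1 were lower.

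Of 11 measured lymphatic genes 7 were detected. Pdpn, the membrane glycoprotein podoplanin, read 4615, 1933 and 3715, lowest at passage 14 like the members. Lyve1, a hyaluronan receptor, read 1375, 2929 and 163, highest at passage 14 and 8.44-fold lower at passage 18 than at 13. Flt4, the VEGF-C receptor, read 2039, 1869 and 919.7, and the nuclear receptor gene Nr2f2 read 1427, 1226 and 1440. Over the list 3 of 7 were lowest at passage 14, near the share of all detected genes (37.5%). At passage 18, 5 of 7 read lower than at 13 and 2 higher, where 47.9% of all detected genes were higher. The medians were -0.22 for passage 14 minus 13 and -0.92 for passage 18 minus 13. Prox1, the lymphatic identity factor, lay above the floor at passages 13 and 18 only. Reln, Mmrn1 and Itga9 were below the floor on all arrays.

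Markers of the mesenchymal cells that express these genes in skin were read beside them. Of 10 pericyte markers 2 were detected (Pdgfrb and Mcam), and Rgs5, Cspg4, Kcnj8, Abcc9, Rgs4 and Higd1b were below the floor on all arrays. Summed over the pericyte list, the intensities of passages 13, 14 and 18 were 781, 311 and 820, and Mcam, which endothelial cells also express, made up much of that with 557, 110.5 and 421. Pdgfrb read 77.9, 66.0 and 206. Of 14 fibroblast markers 8 were detected, with summed intensities of 10231, 8684 and 16218, of which S100a4 gave 5070, 5827 and 8185, and Lum and Dpt were below the floor on all arrays. Col1a1 read 263, 92.8 and 1228, the same order of arrays as Acta2, and its chain partner Col1a2, above the floor at passages 13 and 18, read 101, 15.9 and 318. Col3a1 read 199, 203 and 776, Col6a1 122, 53.45 and 552, and Thy1 2496, 1414 and 1723. Of the 8 detected fibroblast markers 4 were lowest at passage 14, against 37.5% of all detected genes. The list's median for passage 14 minus 13 was -0.83. At passage 14, 4 of 9 with a value were at least 2-fold lower than at 13 (3.51% of all genes) and 0 higher (2.65%). At passage 18, 5 of 11 were at least 2-fold higher than at 13 (3.17%) and 0 lower (2.49%). Against passage 14, 6 of 11 were at least 2-fold higher at passage 18 (7.24%) and 0 lower (6.11%). Of the 8 detected fibroblast markers 6 were higher at passage 18 than at 13, against 47.9% of all detected genes, and 2 lower (Thy1 and Fbln1). Of the mesenchymal transition factors 5 of 6 were detected, with Snai2 at 1009, 533 and 2438, Twist1 at 154, 222.5 and 416, Twist2 at 57.5, 52.1 and 156, and Zeb1 at 857, 694 and 915. Their median was -0.30 for passage 14 minus 13 and 1.27 for passage 18 minus 13. Of the 5, 4 were lowest at passage 14 (37.5% of all detected genes). Of 6 with a value 3 were at least 2-fold higher at passage 18 than at 13 (3.17% of all genes) and 0 lower (2.49%). The part of contaminating or converted mesenchymal cells in the members' signal was not tested. Leukocyte genes were detected for 3 of 7, with Cd68 at 127, 244 and 58.15, Cd53 at 244, 121 and 64.6 and Lyz2 at 50, 63.9 and 38.9. Of 5 keratinocyte genes only Krt5 was detected, with 54.5, 51.3 and 49.9.

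Over the 3 arrays the genes with profiles nearest to that of the brightest Acta2 set, by Euclidean distance between mean-centred log2 values among 9776 other detected genes, were Dclk1, Ptx3 and Unc5c (distances 0.21, 0.35 and 0.35). Dclk1 read 164 at passage 13, 42.1 at passage 14 and 641 at passage 18. Nearest to Tagln were Lin7a, Gstk1 and Perp (0.41, 0.42 and 0.46), and Lin7a read 347, 69.1 and 181. With 3 arrays many genes share an order of cultures, so these names describe likeness of readings only.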

How the data were processed

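The authors deposited linear signal intensity values, 1 for every probe set on each array. MAS5 is named in the submitters' processing notes with neither role nor version, and how the intensities were made, and on which genome build, is not given in the sources used here. Per the labels' protocols, all RNA was extracted side by side, amplified once by a linear isothermal method and biotin-labelled. Array medians were 25.7, 26.0 and 26.3, so no further normalization was applied, and intensities were taken to log2 without a pseudocount. The platform annotation names 1 gene for 34958 probe sets, several for 932 and none for 9211. Current symbols were taken by Entrez identifier to RefSeq genes (GRCm38.p6), which matched for 34754. Each gene is represented by its probe set of highest mean log2 intensity.

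The floor was the 95th percentile of 45 measured genes of other tissues, of which 3 (Prm1, Sst and Camk2a) passed as detected. Where 1 of both arrays lay below its floor, a fold is a bound against that floor, and none is given where the bound would be under 1. For the trend, limma 3.58.1 (R 4.3.3) was used (lmFit, eBayes with intensity trend, Benjamini-Hochberg over all probe sets), with 1 residual degree of freedom, after testing on simulated data. The error behind the p-values is the departure of 3 single arrays from a straight line in passage number, moderated across probe sets. It holds no spread between replicate cultures, and the small number of arrays limits all precision. The members and lists were chosen with earlier results of these data known. The genes named are all members, the first 4 detected genes of each other reported list (all, where fewer were detected), further list genes as examples, some chosen after their values were seen, and the 3 nearest profiles of Acta2 and of Tagln. Alternatives were other floors, quantile normalization, median centring, adding 16 before log2, the median over the probe sets of a gene, no _s_at or _x_at sets, no filter and leaving out cultures. One list of related genes is not reported here. The motif search was chosen after the values were seen.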

Additional observations from a re-analysis of the deposited data

How the results depend on the processing

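Of 30 counts recomputed under the alternatives 29 stayed within 1.5 times the reported value. The exception was the number of member genes at least 2-fold different between passages 18 and 13. It was 2 with the floor and 4 without it, because Cnn1 and Actg2, below the floor at passage 13, were then counted at their measured values. Cnn1 and Actg2 also raised the count between passages 18 and 14 from 4 to 6 without the floor. That is 1.5 times the reported value and so just within the limit. The number of detected members lay between 5 and 7. Acta2 was not among them with the median over the probe sets of a gene or without _s_at and _x_at sets, and Des was added with the floor at the 90th percentile, without _s_at and _x_at sets or without the culture of passage 14. Leaving out each culture in turn gave between 6 and 7. With the floors and probe sets kept, these counts, which are among the 30, could not fall below the reported 6, so they are no check of it. Without _s_at and _x_at sets, and with the median of probe sets, Acta2 no longer counted as 2-fold different between passages 14 and 13 or between 18 and 14, whereas Tagln and Myl9 did. The count of member probe sets past the limma trend was 0 under every alternative tried. No probe set of any gene passed under any of them, so these counts, also among the 30, are no check of the members. At an unadjusted limma p under 0.05 there were 2 member probe sets in the reported fit and 5 with no filter on dim probe sets. Of 140 differences of single genes between 2 cultures recomputed, 0 changed sign among those called at 2-fold and 7 moved by more than the gene's own SD over the 3 cultures. That limit is widest for genes that differ most. For Acta2 (SD 2.05) a fall from 1.85 to 1.18 for passage 18 minus 13 was not counted as moved. Differences left without a value are not among the 140. Acta2 for passage 14 minus 13 (-2.25) was such a case with the median of probe sets and without _s_at and _x_at sets. With 2 arrays the trend has no residual degree of freedom, so leaving out a culture gave slopes and no test. No paired analysis was possible because there is 1 group. Signals near the floor limit what can be said of Cnn1, Actg2, Des and Myh11.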
